A study of Mus musculus with 4 samples.

Results

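The TGF-beta ligand and receptor genes described here are the 3 ligand genes Tgfb1, Tgfb2 and Tgfb3, the 3 receptor genes Tgfbr1, Tgfbr2 and Tgfbr3, and the SMAD genes Smad3 and Smad7. Their open chromatin was taken as every ATAC-seq peak whose centre lay within 100 kb of the start site of 1 of these genes, a rule of position that uses no measured value. ATAC-seq reads open chromatin from where a transposase can insert into DNA. The rule gave 103 of the 65467 control peaks and 4 of the 3103 AP-2-dependent regions. Surface ectoderm was dissected from the facial prominences at E11.5, and 50000 cells entered each of 4 libraries, 2 per genotype. Control embryos were Tfap2a flox/+; Tfap2b flox/+ littermates without Crect. The EDKO embryos carried Crect and were homozygous for both floxed alleles (Tfap2a flox/flox; Tfap2b flox/flox). Crect expresses Cre from an intronic enhancer of Tfap2a and was used to recombine the early embryonic ectoderm, although broader recombination can occur. To avoid this, the authors passed Crect through sires that they had first tested with reporter lines. The surface ectoderm was pooled over the prominences, and the sources used here do not give the number of embryos in a library. Control peaks were called on both control libraries together. AP-2-dependent regions were called on the same control libraries with both EDKO libraries as background, so that each marks a place where the signal was higher in controls. Each call merged its libraries into 1 list. No peak therefore has a value per library or an error between replicates, the depth behind a peak is unknown, and shares are given with 95% Wilson intervals that cover counting error only. Where a count was 0, the limit given is 3 counts of the total, with the upper end of the Wilson interval beside it.

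TGF-beta ligands are secreted in a latent form and bind the type II receptor encoded by Tgfbr2, which then phosphorylates the type I receptor encoded by Tgfbr1. Tgfbr3 encodes betaglycan, a co-receptor that presents the ligands, TGF-beta 2 above all. The active type I receptor phosphorylates SMAD3 and its relative SMAD2, which enter the nucleus with SMAD4 and bind DNA. SMAD7 is the inhibitory member, which blocks the type I receptor and is itself induced by the pathway. In the face the pathway is best known for fusion of the palatal shelves, where Tgfb3 is expressed in the epithelium of the medial edge, and for signalling between epithelium and neural crest mesenchyme.

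All 8 genes had their start site inside a control peak, against 61.2% of the 21853 protein-coding genes (13379 genes). This was not particular to them. A control peak lay within 1 kb of the start site of all 15 BMP and all 12 FGF genes described below. The same held for 42 of the 44 other pathway genes, beside 65.2% of all protein-coding genes. The AP-2-dependent regions were few and lay at 3 of the 8 genes: 1 at Tgfbr2, 1 at Smad3 and 2 at Smad7. No region lay within 100 kb of the ligand genes Tgfb1, Tgfb2 and Tgfb3, of Tgfbr1 or of Tgfbr3. Of the 103 control peaks, 4 overlapped a region, or 3.88% (95% interval 1.52 to 9.56%), beside 4.48% of all control peaks (2932 peaks). By gene, 20.2% of all protein-coding genes (4415 genes) had a region centred within 100 kb of the start site. The share of peaks was thus near that of the whole list, and a count of 3 genes is too small to set the share of 37.5% (95% interval 13.7 to 69.4%) apart. A region may reflect fewer cells with the site open or a lower signal per cell, which cannot be told apart in bulk tissue.

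**Figure D1:**
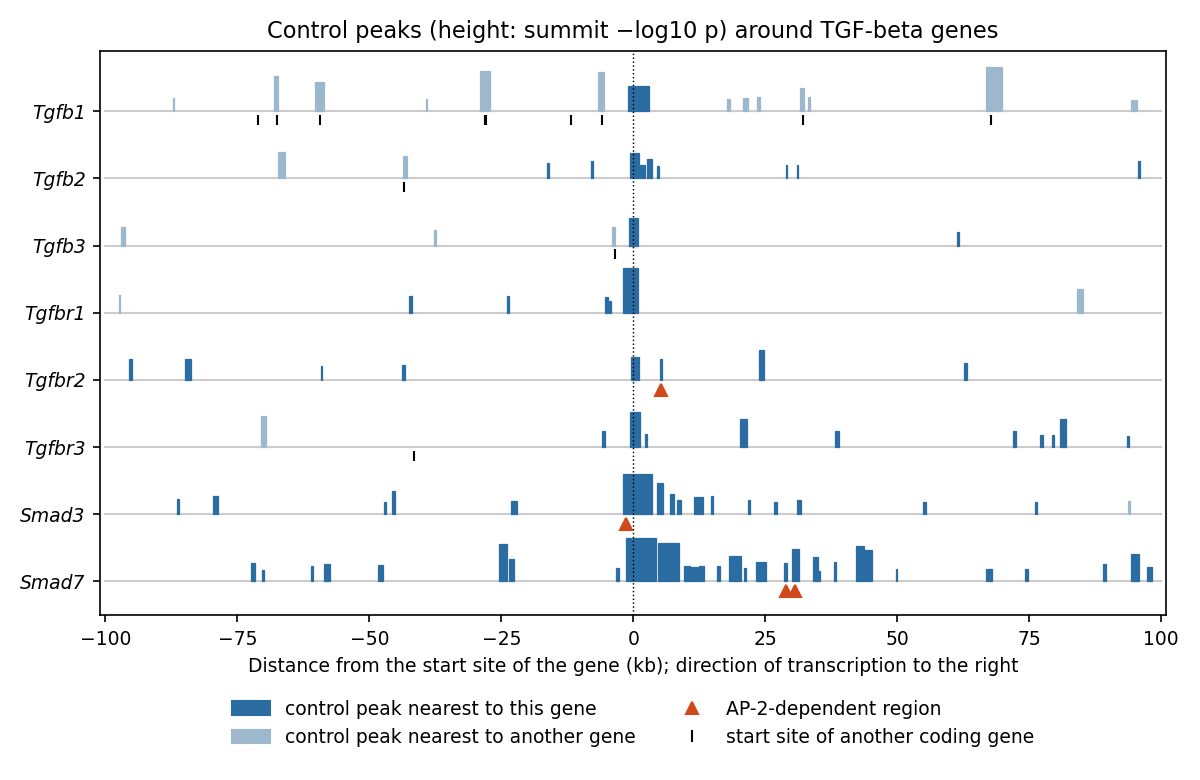
Control peaks and AP-2-dependent regions within 100 kb of the start sites of the 8 genes. The x axis is the distance from the start site in kb, with transcription to the right. Each bar is a control peak drawn to its width, with a height proportional to its summit −log10 p (tallest bar 13.3), in dark blue where this gene has the nearest coding start site and light blue where another gene has. Triangles are the 4 AP-2-dependent regions and black ticks the start sites of other coding genes. Smad7 has 30 peaks and Tgfb3 has 5.

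The region at Tgfbr2 and that at Smad3 are shown in full, since they are the places at a receptor and at a signal transducer where the control signal exceeded that of EDKO ectoderm. Both are read from the GRCm38 reference on the strand of the gene (minus). The first lies at chr9:116170035-116170333 in intron 1 of Tgfbr2 and the second at chr9:63759265-63759521, upstream of Smad3. Capitals mark the AP-2 consensus GCCNNNGGC, which occurs 1 time in the Smad3 region and not in that of Tgfbr2.
Tgfbr2 region: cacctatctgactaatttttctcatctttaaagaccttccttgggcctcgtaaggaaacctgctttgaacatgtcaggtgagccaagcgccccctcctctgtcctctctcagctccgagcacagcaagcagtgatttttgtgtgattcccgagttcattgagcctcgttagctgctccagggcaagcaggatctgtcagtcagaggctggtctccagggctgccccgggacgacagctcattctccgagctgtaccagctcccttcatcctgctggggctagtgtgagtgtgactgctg
Smad3 region: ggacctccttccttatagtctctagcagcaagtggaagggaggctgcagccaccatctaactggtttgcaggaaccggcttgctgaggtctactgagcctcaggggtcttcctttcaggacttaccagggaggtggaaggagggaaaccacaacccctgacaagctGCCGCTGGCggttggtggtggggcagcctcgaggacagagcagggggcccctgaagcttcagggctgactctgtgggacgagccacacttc
Neither sequence held a match to the AP-1, TEAD, Grainyhead-like, SMAD, p53 family or CTCF strings, whose shares in the whole lists are given with the other string counts.

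The same consensus was also found at peaks of these genes that overlapped no region. It lay within 100 bp of the summit, on either strand, in 22 of the 103 control peaks, and 0 of these 22 overlapped a region, which allows a share of up to 13.6% (3 of 22; upper end of the Wilson interval 14.9%). Of the matches, 9 in introns or between genes are shown, from Tgfb2, Tgfbr1, Tgfbr3 and other peaks of Tgfbr2 and Smad3, on the strand of each gene with 20 bases on each side of the match in capitals. They are not a full set. Matches at summits in exons, among them those in the peaks over the start sites of Tgfb1, Tgfb2 and Tgfbr2, and the others at Tgfb1 are not printed. Matches at 7 peaks of Smad7 and at a peak in intron 4 of Smad3 are also left out.
Tgfb2, upstream, chr1:186713773-186713821: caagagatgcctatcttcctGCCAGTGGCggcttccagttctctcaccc
Tgfb2, intron 1, chr1:186674857-186674905: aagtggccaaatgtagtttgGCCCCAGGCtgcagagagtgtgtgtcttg
Tgfb2, beyond the end of the gene, chr1:186610159-186610207: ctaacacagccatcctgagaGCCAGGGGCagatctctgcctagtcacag
Tgfbr1, upstream, chr4:47348005-47348053: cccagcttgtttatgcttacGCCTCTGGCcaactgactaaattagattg
Tgfbr1, peak over the start site, chr4:47353055-47353103: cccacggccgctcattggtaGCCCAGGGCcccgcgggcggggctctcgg
Tgfbr2, upstream, chr9:116218825-116218873: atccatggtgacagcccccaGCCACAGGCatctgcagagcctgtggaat
Tgfbr3, intron 3, chr5:107209946-107209994: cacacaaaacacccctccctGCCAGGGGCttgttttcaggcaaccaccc
Tgfbr3, intron 2, chr5:107217290-107217338: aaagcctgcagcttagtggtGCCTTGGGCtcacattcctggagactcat
Smad3, intron 1, chr9:63735991-63736039: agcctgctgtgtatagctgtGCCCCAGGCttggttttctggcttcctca
All 9 matches lay in control peaks without an AP-2-dependent region.

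Tgfb1, which encodes the ligand found most widely in the body, is transcribed from chromosome 7 (25687002 to 25705077, plus strand) in a gene-dense stretch: 9 other coding start sites lie within 100 kb. It had 14 control peaks, but only the peak over its own start site had Tgfb1 as the nearest gene. This peak ran from 25686026 to 25689980, was 3955 bp wide and had a summit −log10 p of 7.48, above 76.4% of control peaks. The other 13 peaks were nearest to 8 other genes, 5 of them to Ccdc97. Of these 5, 1 lay 18.1 kb downstream and had its summit in exon 7 of Tgfb1 itself. The strongest, with a summit −log10 p of 13.1, lay 68.4 kb downstream and was nearest to Hnrnpul1. The nearest AP-2-dependent region was 407 kb upstream and nearest to Cic.

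Tgfb2 lies on chromosome 1 (186622792 to 186705989, minus strand) and had 11 control peaks, 9 of them nearest to its own start site. Its start site lay in a peak of 1634 bp with a summit −log10 p of 7.50. Downstream of this peak, 3 more were centred within 5 kb, at 1.72, 3.09 and 4.71 kb, so the first part of the gene held a run of 4 peaks. The strongest peak in the window (summit −log10 p 7.71) lay 66.6 kb upstream and was nearest to Rrp15, a neighbouring gene that encodes a ribosomal RNA processing factor. Tgfb2 had the consensus GCCNNNGGC within 100 bp of 4 of its 11 summits, beside 14.4% of all control peaks. This was the most of the ligand and receptor genes, but the ranking rests on small counts, with 3 summits at Tgfb1. The region nearest to Tgfb2 was centred 102.7 kb upstream, the first one beyond the limit of 100 kb at any of the 8 genes. Its area under the curve of −log10 p, the sum over the region that the peak caller uses as its threshold, was 731 and its summit −log10 p 4.63, and it was nearest to Rrp15.

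Tgfb3, on chromosome 12 (86056745 to 86079041, minus strand), had 5 control peaks, the fewest of the 8 genes. The peak over its start site was the strongest, with a width of 1810 bp and a summit −log10 p of 8.09. It was 1 of the 2 peaks nearest to Tgfb3, and the other lay 61.5 kb downstream with a summit −log10 p of 4.03. A further peak 3.70 kb upstream was nearest to Ift43. Tgfb3 was the single gene of the 8 with no match to GCCNNNGGC at a summit, and its nearest region was 309 kb upstream, nearest to Esrrb. Across the 3 ligand genes, 0 of 30 control peaks overlapped a region, beside 4.48% of all control peaks. The count allows a share of up to 10.0% (3 of 30, with the upper end of the Wilson interval at 11.4%), so it does not set the ligand genes apart. Of the 30 peaks, 12 (40.0%, 95% interval 24.6 to 57.7%) were nearest to the ligand gene's own start site.

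Tgfbr1 (chromosome 4, 47353222 to 47414931, plus strand) had 7 control peaks. The peak over its start site had the highest summit −log10 p among all 103 peaks, 13.3, which was above 98.4% of control peaks, and it was 2880 bp wide. A match to GCCNNNGGC lay at its summit, shown above. The gene encodes the kinase that phosphorylates the receptor-activated SMADs. Its body held no other peak: 6 of the 7 peaks were centred upstream of the start site and the last, 84.7 kb downstream, was nearest to Alg2. The remaining upstream peaks had summit −log10 p values from 3.47 to 5.16. Beyond 100 kb, the first control peak upstream of Tgfbr1 was at 101.7 kb (summit −log10 p 4.28), and the last one inside the limit was at 97.4 kb (5.16). Of the 8 genes, Tgfbr1 was the farthest from an AP-2-dependent region, with the nearest 1620 kb downstream.

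Tgfbr2, on chromosome 9 (116084293 to 116175360, minus strand), encodes the receptor that binds the ligands, and its window held no other coding start site. All 8 of its control peaks were nearest to it. The start site lay in a peak of 1428 bp (summit −log10 p 6.95), the weakest of the 8 peaks over start sites. The strongest peak of the window had a summit −log10 p of 8.80 and lay 24.3 kb downstream in intron 1. Between these, in the same intron, lay the AP-2-dependent region, centred 5.18 kb downstream of the start site. The control peak around it was 480 bp wide with a summit −log10 p of 6.27, and the region of 299 bp filled 62.3% of it, with the summits 17 bp apart. The region was weak in its own list: its area under the curve was 221, larger than that of 7.93% of the regions, and its summit −log10 p was 3.64.

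Tgfbr3, on chromosome 5 (107106570 to 107289629, minus strand), had 11 control peaks, of which 10 were nearest to it. The peak over its start site, 1955 bp wide, was the strongest, with a summit −log10 p of 10.5. Introns 1, 2 and 3 held 8 of the 11 peaks, up to 93.8 kb downstream. The gene is longer than 100 kb, so the downstream side of the window lay wholly inside it. This count therefore follows in part from the window, and sites farther along the gene or past its end were not counted. The strongest of these intronic peaks lay 20.9 kb downstream with a summit −log10 p of 8.44. Of the 11 peaks, 2 had the consensus GCCNNNGGC at the summit, both in introns. No region was found, and the nearest was 511 kb downstream, nearest to Zfp644. Across the 3 receptor genes, 1 of 26 control peaks overlapped a region (3.85%, 95% interval 0.682 to 18.9%), beside 4.48% of all control peaks.

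Smad3, also on chromosome 9 (63646767 to 63757994, minus strand), had 17 control peaks, more than 85.0% of protein-coding genes, and 16 were nearest to it. The peak over its start site was 5494 bp wide (63754400 to 63759893) with a summit −log10 p of 12.0. For comparison, the control peaks that hold a start site had a median width of 1388 bp and a median summit −log10 p of 9.56. Intron 1 held 10 of the 17 summits. The AP-2-dependent region lay 1.40 kb upstream of the start site, in the upstream part of this wide peak. It filled 4.68% of the peak, and its summit was 1197 bp from that of the peak, so it lay away from the strongest point of the promoter peak. Its area under the curve was 349, larger than that of 42.3% of the regions, and its summit −log10 p was 4.42, larger than that of 50.6%. The AP-2 consensus shown above lay within 100 bp of the summit of this region. A second region lay 139 kb upstream, beyond the limit, and was nearest to Smad6, a gene for another inhibitory SMAD.

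**Figure D2:**
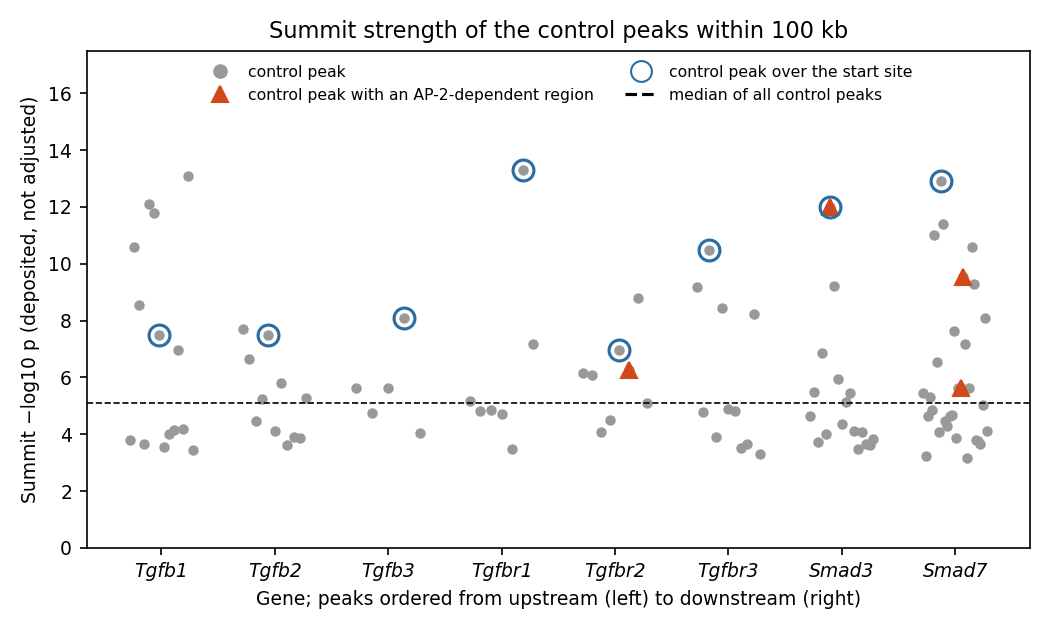
Summit −log10 p of each of the 103 control peaks, by gene and in order from upstream to downstream. The y axis is the deposited −log10 p at the summit, not adjusted. Grey points are control peaks, blue rings the peak over the start site, orange triangles the 4 peaks with an AP-2-dependent region, and the dashed line the median of all control peaks, 5.10. At 5 of the 8 genes the ringed peak is the highest.

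Smad7 (chromosome 18, 75367529 to 75395935, plus strand) had the most control peaks of the 8 genes. It had 30, all nearest to its own start site, and together they covered 35.7 kb of the window of 200 kb. The median over all protein-coding genes was 8 peaks, with quartiles of 4 and 13 and a maximum of 96. The peak over the start site was 5651 bp wide with a summit −log10 p of 12.9, and a second wide peak of 3923 bp followed 6.65 kb downstream with 11.4. Downstream of the start site lay 22 of the 30 peaks. The summits of 8 of them were in introns 2 and 3 of Smad7, and 5 summits lay in the neighbouring gene Ctif.

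The 2 AP-2-dependent regions at Smad7 both lay just past the end of the gene. The first, from 75396246 to 75396575, began 311 bp beyond it and was centred 28.9 kb downstream of the start site. Its area under the curve of 209 and summit −log10 p of 3.30 were near the bottom of the list, above 3.80% and 1.84% of the regions. The control peak around it had a summit −log10 p of 5.61. The second, from 75398165 to 75398368, began 2230 bp beyond the gene and was centred 30.7 kb downstream. Its area was 437 and its summit −log10 p was 5.94, which made it the strongest of the 4 regions, above 56.6% and 80.9% of the list. The control peak around it was 1326 bp wide with a summit −log10 p of 9.53, and the region filled 15.4% of it. Neither region contained GCCNNNGGC, although 7 of the 30 control peaks at Smad7 had it at the summit. Farther out, at 127 and 180 kb downstream and in introns of Ctif, were 2 regions beyond the limit, with areas under the curve of 622 and 562. Across Smad3 and Smad7, 3 of 47 control peaks overlapped a region (6.38%, 95% interval 2.19 to 17.2%), beside 4.48% of all control peaks, a value inside the interval.

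**Figure D3:**
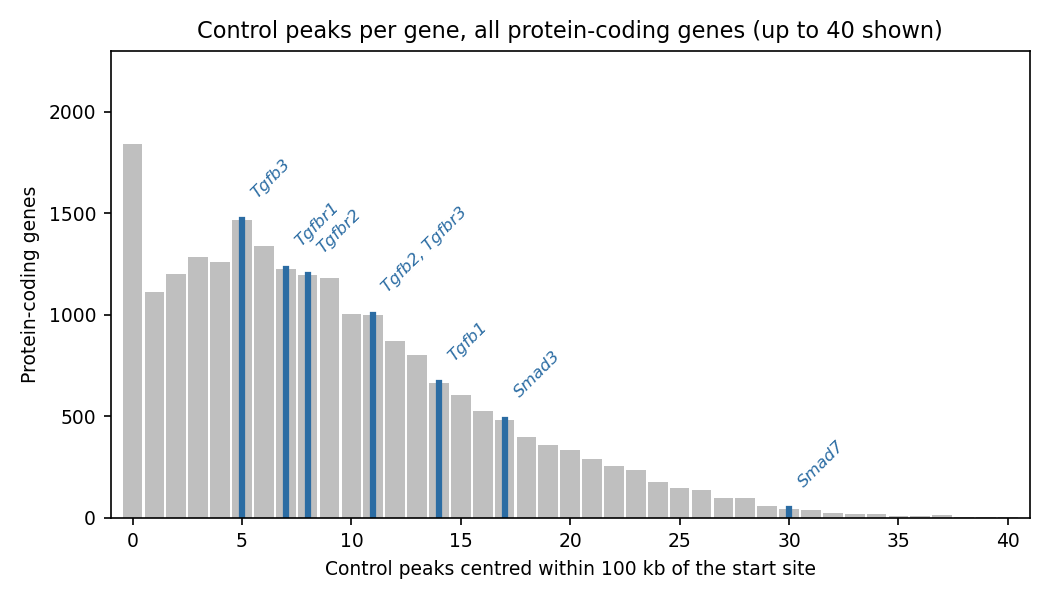
Number of protein-coding genes (y axis) by the number of control peaks centred within 100 kb of the start site (x axis, shown up to 40). Blue lines mark the 8 genes. Tgfb3, Tgfbr1 and Tgfbr2 lie at 5 to 8 peaks, around the median of 8, and Smad7 lies at 30.

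Taken over all 103 peaks, the open chromatin of these genes was mostly distal and of ordinary strength. More than 5 kb from every coding start site lay 77.7% of the peaks (80 peaks, 95% interval 68.7 to 84.6%), against 69.9% of all control peaks on chromosomes. The median summit −log10 p was 5.03 (95% interval 4.64 to 5.61), beside 5.10 in the whole list, and the median width was 708 bp beside 560 bp. The peaks over the 8 start sites were stronger than this, from 6.95 to 13.3. Between protein-coding genes lay 49 summits, and 34 lay in introns of the 8 genes themselves. The 49 are not all distal. They include summits, outside the transcript, of the peaks over the start sites of Tgfb3, Tgfbr1, Tgfbr3, Smad3 and Smad7, and of peaks at start sites of neighbouring genes. Of the 80 distal peaks 3 overlapped a region (3.75%, 95% interval 1.28 to 10.5%), against 5.74% of all distal control peaks, and of the 23 proximal peaks 1 did, the Smad3 promoter (4.35%), against 1.53%. Both 95% intervals, the second of which starts at 0.772%, include the share of the whole list.

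Consensus strings were counted within 100 bp on each side of the summits, on both strands. Matches of different strings may overlap. The AP-2 string GCCNNNGGC was present in 22 of the 103 windows (21.4%, 95% interval 14.5 to 30.2%), in 14.4% of all 65298 control peaks on chromosomes and in 22.7% of all 3072 regions on chromosomes. The difference from all control peaks depended on the window: within 50 bp of the summit the string was present in 8 of the 103 peaks (7.77%, 95% interval 3.99 to 14.6%), beside 7.42% of all control peaks. In distal peaks it was at 21.2% (17 of 80) beside 12.3%, and in proximal peaks at 21.7% (5 of 23) beside 19.3%. By role it occurred in 7 of 30 windows at the ligands, 6 of 26 at the receptors and 9 of 47 at the SMAD genes, shares with overlapping 95% intervals. In the whole list, 7.03% of control peaks with the string overlapped a region and 4.04% of those without it. At the 8 genes the counts were 0 of 22 and 4 of 81. The 81 include the Smad3 promoter peak, whose region held the string, because the summits of peak and region lay 1197 bp apart. Counted at the summits of the regions themselves, 1 of the 4 regions at these genes had the string, beside 22.7% of all regions. The 0 of 22 therefore does not show that regions at these genes lack the string. In the RefSeq promoters (GRCm38.p6, 250 bases before to 50 after the start), found for 5 of the 8 genes, the string was present at Tgfb1 and Tgfbr1 and not at Tgfb2, Tgfbr2 and Smad3, beside 16.6% of all 32851 promoters.

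**Figure D4:**
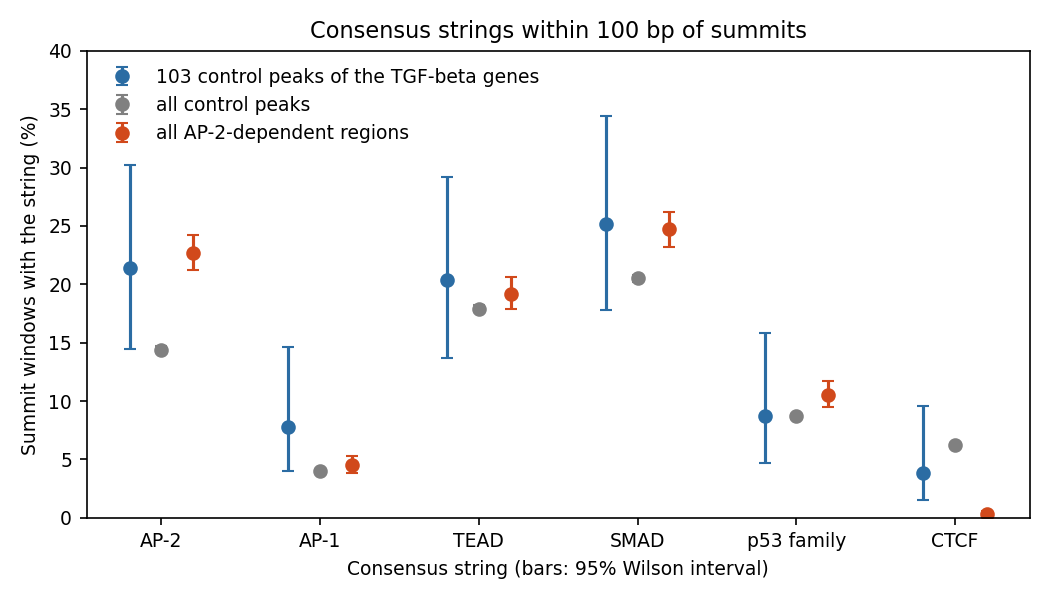
Share of summit windows with each consensus string (y axis, percent) for the 103 control peaks of the 8 genes, all control peaks and all AP-2-dependent regions. Points are shares and bars 95% Wilson intervals. For AP-2 the blue point is at 21.4% and the grey point at 14.4%, just below the lower end of the blue interval (14.5%), whereas within 50 bp, not plotted, the shares were 7.77% and 7.42%.

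SMAD proteins bind short CAGA-containing DNA, and their string CAGACA occurred at 26 of the 103 summits (25.2%, 95% interval 17.8 to 34.4%), beside 20.5% of all control peaks. Of these 26 peaks, 0 overlapped a region (upper end of the Wilson interval 12.9%), beside 5.39% of all control peaks with the string (721 of 13369), so the count does not set them apart. The palindromic SMAD string GTCTAGAC was found once, in the control peak 30.8 kb downstream of Smad7, and the match lay inside the stronger of the Smad7 regions. That region also held a match to the p53 family consensus. In the whole control list 225 peaks had the palindrome (0.345%). The AP-1 string TGAGTCA, bound by factors that often act beside SMADs, was present in 8 windows (7.77%, 95% interval 3.99 to 14.6%) beside 3.98% of control peaks, 1 window at each of the 8 genes. The share of all control peaks lay only just below this interval, and a narrower window was not counted for this string. TEAD strings (GGAATG) occurred in 21 windows (20.4% beside 17.9%) and the p53 family consensus in 9 (8.74% beside 8.68%). The CTCF consensus was at 4 summits, 2 of them in the window of Tgfbr1 (3.88% beside 6.21%), and the Grainyhead-like string AACCGGTT at 0, which allows a share of up to 2.91% (upper end of the Wilson interval 3.60%), beside 0.338%.

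The rest of the pathway was read from a list of 44 genes for latent TGF-beta binding proteins, integrins and proteases that activate the ligands, further receptors, SMADs, co-repressors and targets. Of these genes, 42 had a control peak within 1 kb of the start site, the exceptions being Eng and Bgn, beside 65.2% of all protein-coding genes. An AP-2-dependent region lay within 100 kb of 14 of the 44 (31.8%), beside 20.2% of all protein-coding genes. That value was only just above the lower end of the 95% interval of the share, which reaches 46.6%. Within 250 kb the value for all protein-coding genes, 41.4%, fell just below the interval (42.2 to 70.3%). With areas of at least 500 the share was instead the lower of the pair (4.55% beside 7.91%). Of the 44 genes, 10 had a region for which theirs was the nearest start site. By peaks the share was 17 of 482 (3.53%, 95% interval 2.21 to 5.58%), beside 4.48% of all control peaks.

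Among the genes that handle latent ligand, Ltbp1 and Ltbp2, whose products anchor it in the matrix, each had 1 region, 40.7 and 48.8 kb downstream. The one at Ltbp2 had the largest area under the curve in the list, 802, with a summit −log10 p of 6.58. At Thbs1, for the matrix activator thrombospondin 1, a region lay 37.7 kb upstream. Furin, which encodes a protease that cleaves the ligand precursor, had 2, the larger with an area of 282. Itgb5, for an integrin subunit, had 2, of which the larger (540) was nearest to Umps. Of the nuclear regulators, the co-repressor genes Skil and Tgif1 had 1 region each, both upstream, with areas of 400 and 376. Zeb2, which encodes a SMAD-interacting repressor, had 2, the larger 9.88 kb downstream with an area of 417. The feedback inhibitor gene Pmepa1 had a region 31.2 kb upstream and the target gene Tgfbi one 42.9 kb downstream, with areas of 401 and 392. The regions at Ltbp3, Acvrl1, Strap and Tgfbr3l were nearest to other genes. Smad2 and Smad4, the partners of SMAD3, had none.

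The same rule was applied to related ligand systems. At 15 BMP genes 4 of 117 control peaks overlapped a region (3.42%, 95% interval 1.34 to 8.46%) and at 12 FGF genes 5 of 158 (3.16%, 1.36 to 7.19%). These intervals overlap that of the 8 genes and include the 4.48% of all control peaks. The differences were not tested, since peaks are not replicates.

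Markers of surface ectoderm and of the underlying mesenchyme both had open start sites. A control peak lay within 1 kb of the start site of all 12 markers of surface ectoderm, of 9 of 10 markers of mesenchyme, of 1 of 4 endothelial markers and of 0 of 4 blood markers (3 of 4 by the limit for a count of 0; upper end of the Wilson interval 49.0%), beside 65.2% of all protein-coding genes. The part of mesenchymal cells in the peaks described was not tested. At the targeted genes, a region from 40719309 to 40720099 on chromosome 13 overlapped exon 6 of the annotated transcript of Tfap2a. The region inside Tfap2b, from 19233786 to 19234205 on chromosome 1, overlapped exon 7 of the annotated transcript. The paper places exon 6 of each gene between loxP sites, at Tfap2a together with the exon before it. Positions of the loxP sites were not mapped here, and the paper's exon numbers were not matched to those of the annotated transcripts. A lower signal over DNA removed in EDKO ectoderm need not reflect accessibility.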

How the data were processed

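Facial surface ectoderm of E11.5 embryos was profiled by ATAC-seq in 4 libraries, 2 control and 2 EDKO. The authors removed adapters (NGmerge), aligned to mm10 (Bowtie2, --very-sensitive -k 10) and ran Genrich (v0.5) with -j -y -r -e chrM, once per list on the combined libraries. Each deposited peak has a score (its area under the curve of −log10 p per base, times 1000 and at most 1000), that area (another score, with a minimum of 200.006 in control peaks and 200.002 in regions), an unadjusted −log10 p at the summit and the summit's offset. The submitters' processing notes also name SAMtools, Picard, deepTools, HOMER and Novoalign. These values were used within their own list only, and EDKO peaks, H3K4me3 and RNA-seq were not used here.

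Each of 21853 protein-coding genes of GENCODE (mouse release 21, GRCm38, the assembly of mm10) was given the start site of its principal APPRIS transcript. Peaks were assigned by their centres, and overlaps were counted from 1 bp. Scaffolds (169 control peaks, 31 regions) were left out of searches for strings. Strings were matched on 21 chromosomes with pysam 0.24.0, and the median number of copies of 31-base words was counted for peaks near the 8 genes. Programs were tested on simulated intervals and sequences. Intervals are 95% Wilson intervals (scipy 1.17.1), with order statistics for medians. No p-value was computed.

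Every gene, every region within 100 kb, the peaks over the start sites, the strongest peaks, the nearest regions and the pathway genes with a region were named by rule. Further peaks, and Eng, Bgn, Smad2 and Smad4, were named after their values were seen. Neighbouring genes are named as the nearest to a described peak or region. The genes and lists were chosen with earlier results of these data known. Alternatives were a stricter threshold, other distance limits, start sites, peak positions, assignments, overlaps, strings and summit windows.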

Additional observations from a re-analysis of the deposited data

How the results depend on the processing

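Of 54 alternative values for the 8 summary results, 45 stayed within 1.5 times a count or within the interval of a share or median. This tally is a weak check, since some settings left the same peaks and the intervals of shares were wide. A fall of the share with a region from 3.88% to 1.94% still counted as within. When areas under 500 were dropped from both lists, there were 0 regions at the 8 genes, so the share of control peaks with a region was 0% (2.45% in the whole list), the median summit −log10 p was 5.96, and 2 of 44 pathway genes had a region (4.55%, beside 7.91% of all protein-coding genes). Within 50 kb there were 68 control peaks. Within 250 kb there were 206 control peaks, 11 regions and 25 pathway genes with a region (56.8%, 95% interval 42.2 to 70.3%, beside 41.4% of all protein-coding genes). With 50 bp on each side of the summit, the share with the AP-2 string was 7.77%, beside 7.42% of all control peaks, so the difference seen within 100 bp was not present. Requiring 50% of both intervals left 1.94% of the control peaks with a region, beside 2.87% in the whole list. The other start site left the counts at the 8 genes as they were, and so did single-copy sequence. Every control peak at the 8 genes was single-copy already, so the latter setting could not change their counts. No library could be left out, since each list merges its libraries. No paired analysis was possible because the results come from no test and the lists hold no value per library. Peaks below the authors' threshold were not seen, so the absence of a region does not show equal accessibility.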
